A study of Mus musculus with 8 samples.

Results

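The 8 genes Il17a, Il17f, Il22, Il21, Il23r, Il1r1, Ahr and Stat3 encode cytokines and regulators of T helper 17 (Th17) cells. They were chosen by gene symbol, and all 8 were matched, each by 1 probe set, among 19505 named genes on the arrays. Transcripts were quantified on 8 Affymetrix whole-transcript arrays (1 colour each) in T cells from the spleens of male wild-type C57BL/6 mice, isolated together as CD4 and CD8 cells. Bead-bound anti-CD3 and anti-CD28 activated the cells during 48 h of culture with human beta-defensin-2 (hBD-2, 4 arrays), a cationic antimicrobial peptide of epithelia, or with its vehicle PBS (4 arrays). The labels give hBD-2 as 60 µL/mL, a volume whose peptide mass is unknown. They name 4 mice without tying arrays to animals, so p-values measure the spread between these arrays, which may share a mouse. No Th17-polarising cytokine is named in the labels, and the comparison asks how hBD-2 alters the transcripts of activated T cells.

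Th17 cells arise from CD4 T cells that receive interleukin-6 or interleukin-21 together with transforming growth factor beta, and STAT3 carries the signal of these interleukins to the nucleus. Interleukin-1 and interleukin-23 maintain the cells through their receptors, of which Il1r1 and Il23r encode chains. The cells secrete interleukins 17A and 17F, and, with the aryl hydrocarbon receptor encoded by Ahr, interleukin-22. Gamma-delta T cells and innate lymphoid cells make the same cytokines.

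Il17a and Il17f are related genes that neighbour each other on mouse chromosome 1. Their RefSeq promoters (GRCm38.p6, the 250 bases before the transcript start, in the gene's own direction) are shown because the pair shares a locus and both encode the cytokines that name the lineage. Il17a is on the plus strand at chr1:20730655-20730904 and Il17f on the minus strand at chr1:20784271-20784520. Capitals mark AGGTCA or its reverse complement, the core half-site bound by ROR-family receptors.
Il17a: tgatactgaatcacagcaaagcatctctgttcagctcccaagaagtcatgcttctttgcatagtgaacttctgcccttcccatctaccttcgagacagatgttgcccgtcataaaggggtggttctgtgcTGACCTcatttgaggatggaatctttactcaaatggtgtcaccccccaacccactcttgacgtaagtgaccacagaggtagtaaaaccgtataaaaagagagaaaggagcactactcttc
Il17f: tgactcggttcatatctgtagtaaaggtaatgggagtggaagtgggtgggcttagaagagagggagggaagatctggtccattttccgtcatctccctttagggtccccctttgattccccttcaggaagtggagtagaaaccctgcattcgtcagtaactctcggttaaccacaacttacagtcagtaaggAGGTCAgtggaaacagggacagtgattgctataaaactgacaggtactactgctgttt
Both promoters held 1 such hexamer, TGACCT in the direction of Il17a and AGGTCA in that of Il17f, which puts AGGTCA on the minus strand of the chromosome in both. Of the 7 members with a promoter window, 3 held it (Il17a, Il17f and, at 2 positions, Il23r), and of all 32851 RefSeq windows 14.0% did. A core element of the aryl hydrocarbon receptor, GCGTG, was found for 2 members (Il21 and 1 of the 2 windows of Il1r1), against 28.2% of all windows. The STAT element TTCNNNGAA was found for 0 of the 7, against 7.02% of all windows. Both strands were searched, no 2 hits overlapped, and a match is only a run of letters.

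With hBD-2, none of the 8 genes passed the test. Il17a was higher on all 4 hBD-2 arrays than on any PBS array, Stat3 was lower on all 4, and Il22, Il21, Il17f and Ahr differed by less than their standard errors. Over all genes, 869 of 19505 passed, or 4.46% (limma, Benjamini-Hochberg adjusted p under 0.05), with 0.8% higher and 3.66% lower. Of these, 82.0% were lower with hBD-2, a share of 69.7% with quantile normalization repeated, 69.6% with each array's level trend removed and 92.4% with arrays shifted to a common level of olfactory receptor genes, which T cells are taken not to transcribe. The groups did not overlap for 3 of the 8 members (Il17a and Il1r1 higher, Stat3 lower), against 14.9% of all genes (5.51% higher, 9.36% lower), and 4 of the 8 had an unadjusted limma p under 0.05, against 22.3% of all genes. The median log2 fold change was 0.11 over the 8 members and 0.02 over all genes.

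Values are the deposited log2 expression values. Since these arrays give no detection call, the 1091 olfactory receptor genes served as the floor. Their 95th percentile lay between 4.36 and 4.59 on the hBD-2 arrays and between 4.28 and 4.44 on the PBS arrays. The floor itself was thus placed slightly higher with hBD-2, with a median log2 fold change of 0.06 over these genes (733 of 1091 above 0, and 2 called). Il17a, Il22, Ahr and Stat3 lay above that percentile on all 8 arrays. This position alone does not show transcription, since 1.47% of olfactory receptor genes had a mean at or above that of Il22. The share was 1.37% for Ahr, 0.458% for Il17a and 0% for Stat3. Il17f lay above the percentile on 3 arrays of each group, and Il21, Il23r and Il1r1 lay below it on all 8. Differences in those last 3 genes are therefore read from values that an untranscribed gene can have. Whether the 3 were transcribed cannot be told, and any true change so close to the floor may be understated.

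**Figure D1:**
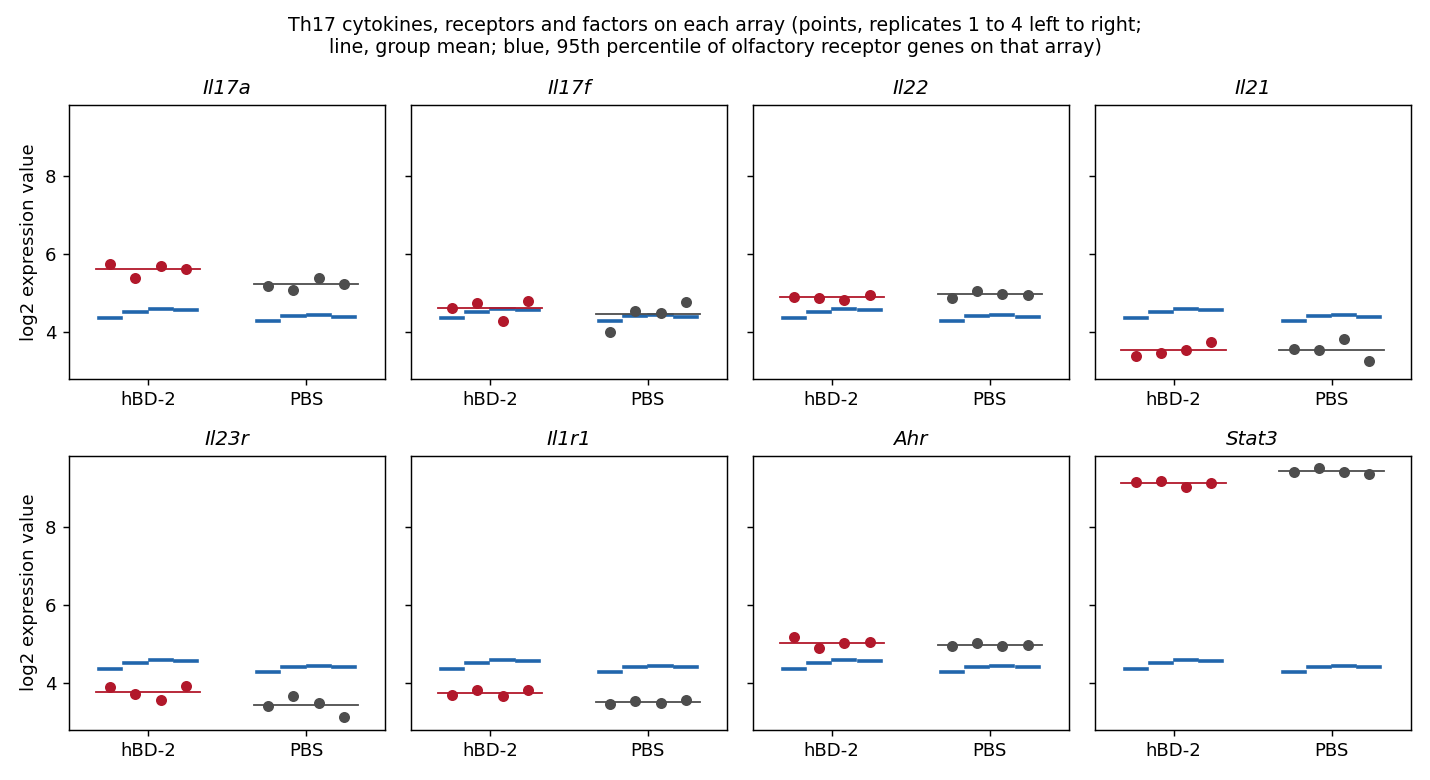
Log2 expression value (vertical axis) of each of the 8 genes on the 4 hBD-2 arrays (red, left) and the 4 PBS arrays (grey, right), replicates 1 to 4 from left to right, with a line at the group mean. Blue marks give the 95th percentile of the 1091 olfactory receptor genes on the same array: Stat3 stands far above it, Il17a, Il22 and Ahr a little above it, and Il21, Il23r and Il1r1 below it.

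Il17a encodes interleukin-17A, the defining cytokine of the lineage. It was at 5.76, 5.40, 5.68 and 5.61 on hBD-2 arrays 1 to 4, and at 5.18, 5.08, 5.38 and 5.24 on PBS arrays 1 to 4. The lowest hBD-2 value lay just above the highest PBS value, so the groups did not overlap but barely parted. The means were 5.61 ± 0.155 with hBD-2 and 5.22 ± 0.126 with PBS (SD, n = 4 each), a log2 fold change of 0.39 (SE 0.107) or 1.31-fold, with a 95% interval of 1.11-fold to 1.54-fold. The limma adjusted p was 0.0635. It was 0.0294 when genes below the 40th percentile of mean level were left out and 0.0453 without hBD-2 replicate 2, and from 0.0605 to 0.164 without any other single array. With quantile normalization repeated the log2 fold change was 0.35 (adjusted p = 0.0911, limma), and after cyclic loess it was 0.34 (0.0938). It was 0.36 with the level trend removed (0.0849) and 0.33 with arrays shifted to a common olfactory receptor level (0.0978). Measured from each array's olfactory receptor percentile, Il17a stood 0.89 to 1.40 above it with hBD-2 and 0.67 to 0.94 above it with PBS, and there the groups overlapped.

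Il17f encodes interleukin-17F, which pairs with interleukin-17A and acts on the same receptor. It was at 4.61, 4.75, 4.28 and 4.80 on hBD-2 arrays 1 to 4, and at 4.00, 4.55, 4.49 and 4.76 on PBS arrays 1 to 4. The groups overlapped over most of their range. The log2 fold change was 0.16 (SE 0.163, adjusted p = 0.602, limma), with an interval of 0.874-fold to 1.43-fold, and it was 0.012 without PBS replicate 1. In both groups the highest values of Il17f were those of replicates 2 and 4. The same arrays carried the most Cd79a, a B cell gene, at 7.86 and 7.76 with hBD-2 (5.23 and 4.80 on replicates 1 and 3) and at 6.60 and 6.84 with PBS (4.50 and 4.85 on replicates 1 and 3). The part of these transcripts in the values of Il17f was not tested.

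Il22 encodes interleukin-22, which acts on epithelial rather than blood cells. Its values were 4.90, 4.88, 4.81 and 4.96 on hBD-2 arrays 1 to 4, against 4.87, 5.06, 4.99 and 4.96 on PBS arrays 1 to 4. The groups overlapped, and replicates lay close together in both. The log2 fold change was -0.08 (SE 0.0870, adjusted p = 0.616, limma), with an interval of 0.827-fold to 1.08-fold. Il21 encodes interleukin-21, by which the cells stimulate themselves. It was at 3.39, 3.45, 3.54 and 3.73 on hBD-2 arrays and at 3.58, 3.55, 3.81 and 3.24 on PBS arrays. All 8 values lay under the olfactory receptor percentile, and 20.6% of olfactory receptor genes had a mean at or above that of Il21. Its log2 fold change was -0.014 (SE 0.127, adjusted p = 0.964, limma), and no direction can be given, since the sign turned with single arrays left out.

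Il23r encodes the interleukin-23 receptor chain that Th17 cells acquire. It was at 3.89, 3.72, 3.56 and 3.93 on hBD-2 arrays 1 to 4, and at 3.40, 3.67, 3.48 and 3.12 on PBS arrays 1 to 4. The groups overlapped through 1 array each, and all values lay within the range of olfactory receptor genes, 18.2% of which had a mean at or above that of Il23r. The log2 fold change was 0.36 (SE 0.130, adjusted p = 0.137, limma). Il1r1 encodes the signalling receptor for interleukin-1. Its values were 3.68, 3.81, 3.66 and 3.81 on hBD-2 arrays, against 3.46, 3.55, 3.49 and 3.55 on PBS arrays. The groups did not overlap, with a log2 fold change of 0.23 (SE 0.0861, adjusted p = 0.145, limma), yet the values were at the floor. Set against each array's olfactory receptor percentile, Il1r1 stood at -0.92 to -0.68 with hBD-2 and at -0.95 to -0.82 with PBS, and the ranges overlapped. With quantile normalization repeated the log2 fold change was 0.29 for Il23r and 0.16 for Il1r1.

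Stat3, the transcription factor downstream of interleukins 6, 21 and 23, was the 1 member with a high signal, at the 94.5 percentile of mean levels. It was at 9.17, 9.20, 9.04 and 9.13 on hBD-2 arrays 1 to 4, and at 9.42, 9.52, 9.42 and 9.38 on PBS arrays 1 to 4. Every hBD-2 value lay below every PBS value. The means were 9.13 ± 0.0682 with hBD-2 and 9.43 ± 0.0602 with PBS (SD, n = 4 each), a log2 fold change of -0.30 (SE 0.0859) or 1.23-fold lower with hBD-2, with an interval of 0.714-fold to 0.927-fold and a limma adjusted p of 0.0738. It passed with a variance prior that follows the mean level (adjusted p = 0.00427, limma), with genes of low mean level left out (0.0292), and with arrays shifted to a common olfactory receptor level (0.0375). With quantile normalization repeated the log2 fold change was -0.20 (adjusted p = 0.187, limma). Ahr encodes a receptor for dietary, microbial and environmental ligands. Its values were 5.17, 4.90, 5.01 and 5.04 on hBD-2 arrays, against 4.94, 5.02, 4.94 and 4.99 on PBS arrays. The groups overlapped, the log2 fold change was 0.06 (SE 0.0895, adjusted p = 0.744, limma), and the interval ran from 0.910-fold to 1.19-fold.

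**Figure D2:**
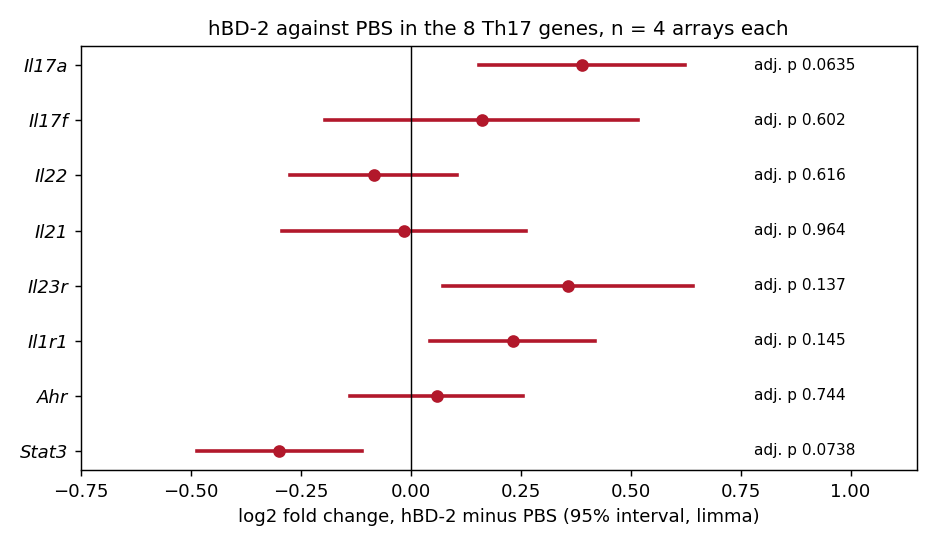
Log2 fold change of hBD-2 over PBS (horizontal axis, points) with its 95% interval from limma (lines) for each of the 8 genes, and the adjusted p at the right. The intervals of Il17a, Il23r and Il1r1 lie above 0 and that of Stat3 below 0, but no adjusted p is under 0.05.

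The size of these differences matters for the test. In simulated data with the arrays' own means and spreads, 8% of genes changed by 1.25-fold were recovered, 68% by 1.5-fold, 92% by 2-fold and 100% by 3-fold, of 50 genes each. All seeded genes had mean levels from the 40th percentile upwards. Only 200 of 19505 genes were seeded, whereas 869 were called in the real data. The adjusted threshold was thus stricter in the simulation, which may understate the recovery of small changes here. The 1.31-fold difference of Il17a lies between the smallest 2 of these sizes, and the 1.23-fold difference of Stat3 lies below all of them. The profiles closest to that of Il17a over the 8 arrays, after centring each gene on its own mean, were those of Kmt2d, a histone methyltransferase, Arap2 and Ldlrad4, with root mean square differences of 0.0561, 0.0575 and 0.0577 log2 units. For Stat3 they were Cops6, a subunit of the COP9 signalosome, Nme2, a nucleoside diphosphate kinase, and Slc35c1, with differences of 0.0256, 0.0267 and 0.0312. These 6 genes were the closest among 11226 candidates and were picked for likeness alone.

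Il17a was next set against other cytokine genes within each array, in 3 comparisons. Ifng, the interferon gamma gene of Th1 and CD8 cells, was at 5.33 ± 0.418 with hBD-2 and 6.80 ± 0.260 with PBS (SD, n = 4 each; log2 fold change -1.48, adjusted p = 0.00204, limma, and 0.0592 without replicates 2 and 4 of both groups). The log2 value of Il17a minus that of Ifng was between -0.36 and 0.93 on hBD-2 arrays and between -1.93 and -1.23 on PBS arrays. The difference changed by 1.87 in favour of Il17a (two-sided exact permutation test over the arrays, p = 0.0286, the lowest this design allows, 0.0429 adjusted over the 3 comparisons and 0.0571 over the 2 that leave out Il4). Each gene had already separated the groups, in opposite directions, so this p was fixed in advance and adds no support. Of the genes behind the difference of Il17a and Ifng, Ifng alone passed the test. Il4, a Th2 cytokine gene, was at 3.16 ± 0.139 with hBD-2 and 3.45 ± 0.170 with PBS, below the olfactory receptor percentile on all 8 arrays (log2 fold change -0.29, adjusted p = 0.153, limma). Since no Il4 value rose above the floor in either group, a difference between its change and that of Il17a cannot be read. Il17a minus Il17f was 1.00 ± 0.338 with hBD-2 and 0.77 ± 0.330 with PBS (SD, n = 4 each), so the 2 neighbours were not shown to differ in their change (0.23, two-sided exact permutation test, p = 0.371).

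**Figure D3:**
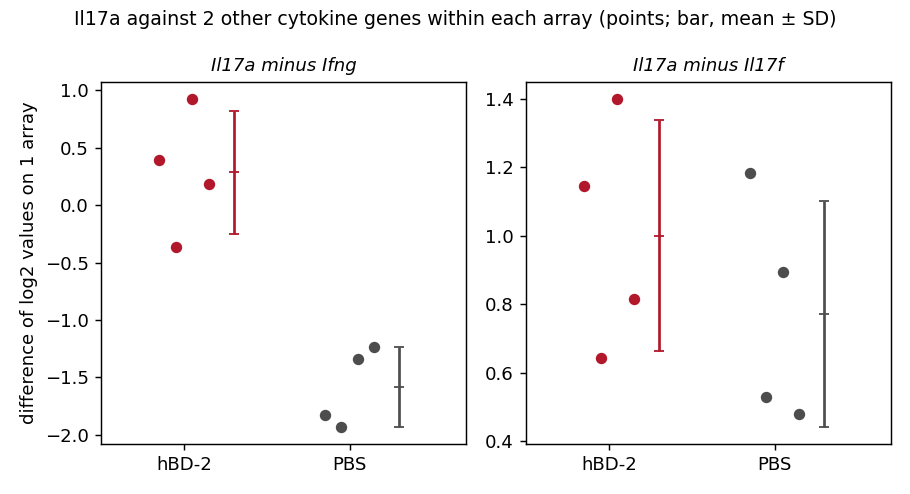
Log2 value of Il17a minus that of Ifng or Il17f on the same array (vertical axes, each with its own scale) for the 4 hBD-2 arrays (red, left) and the 4 PBS arrays (grey, right), with mean ± SD beside the points. The groups are apart for Ifng and overlap for Il17f.

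Among the other T helper genes, Il13, a Th2 cytokine gene above the floor, was at 5.94 ± 0.0604 with hBD-2 and 5.56 ± 0.199 with PBS (SD, n = 4 each), a log2 fold change of 0.38 (adjusted p = 0.0729, limma), much the size of that of Il17a. It passed with dim genes left out (adjusted p = 0.0345, limma) and without PBS replicate 3 (0.0393). Tbx21, the Th1 regulator, had a log2 fold change of -0.23 (adjusted p = 0.230, limma).

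Of 66 other genes of the Th17 pathway in 7 lists, 62 were matched. With hBD-2, 3 fell and none rose, the other 59 not passing, or 4.84% called beside the 4.46% of all genes. The 3 were Tiparp, Icos and Bhlhe40. Which genes passed depended on the scaling. There were 1 higher and 1 lower after repeated quantile normalization, 2 and 2 after cyclic loess, and 2 higher and 1 lower with each array's level trend removed. Tiparp, Icos and Bhlhe40 kept a negative log2 fold change under each of these scalings, whether or not they passed. On the deposited scale the median log2 fold change was 0.0048 against 0.02 over all genes.

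Tiparp, an ADP-ribosyltransferase gene induced by the aryl hydrocarbon receptor, was at 4.44, 4.43, 3.96 and 4.51 on hBD-2 arrays 1 to 4, and at 5.15, 5.69, 5.22 and 5.60 on PBS arrays 1 to 4. No hBD-2 array came near any PBS array. It fell 2.11-fold (log2 fold change -1.08, SE 0.154, adjusted p = 0.00336, limma) and kept its call without any single array, but not without replicates 2 and 4 of both groups (-0.98, adjusted p = 0.199, limma), where 2 arrays a group remain. On 3 of the 4 hBD-2 arrays it lay below the olfactory receptor percentile, and on all 4 PBS arrays above it, so the fold may be understated. The other partners and targets of the receptor did not pass. The log2 fold change was 0.05 for Arnt, its dimerisation partner, 0.012 for Ahrr, its repressor, and -0.17 for Cyp1a1 and 0.04 for Cyp1b1, targets whose values lay in the floor range in both groups.

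Icos, a co-stimulatory receptor gene, was at 10.15 ± 0.105 with hBD-2 and 10.55 ± 0.0600 with PBS (SD, n = 4 each) and fell 1.33-fold (log2 fold change -0.41, adjusted p = 0.0307, limma). Bhlhe40, a transcription factor gene of cytokine-producing T cells, was at 9.73 ± 0.265 with hBD-2 and 10.27 ± 0.126 with PBS (SD, n = 4 each) and fell 1.45-fold (log2 fold change -0.53, adjusted p = 0.0442, limma). For each, omission of any of 6 arrays, 1 at a time, ended the call, with a limma adjusted p of up to 0.0965 for Icos and 0.123 for Bhlhe40. Repeated quantile normalization ended both calls too (0.0515 and 0.0615). The remaining 7 of 8 listed STAT3 targets did not pass, among them Socs3, the feedback inhibitor, at 6.81 ± 0.272 with hBD-2 and 6.78 ± 0.127 with PBS.

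**Figure D4:**
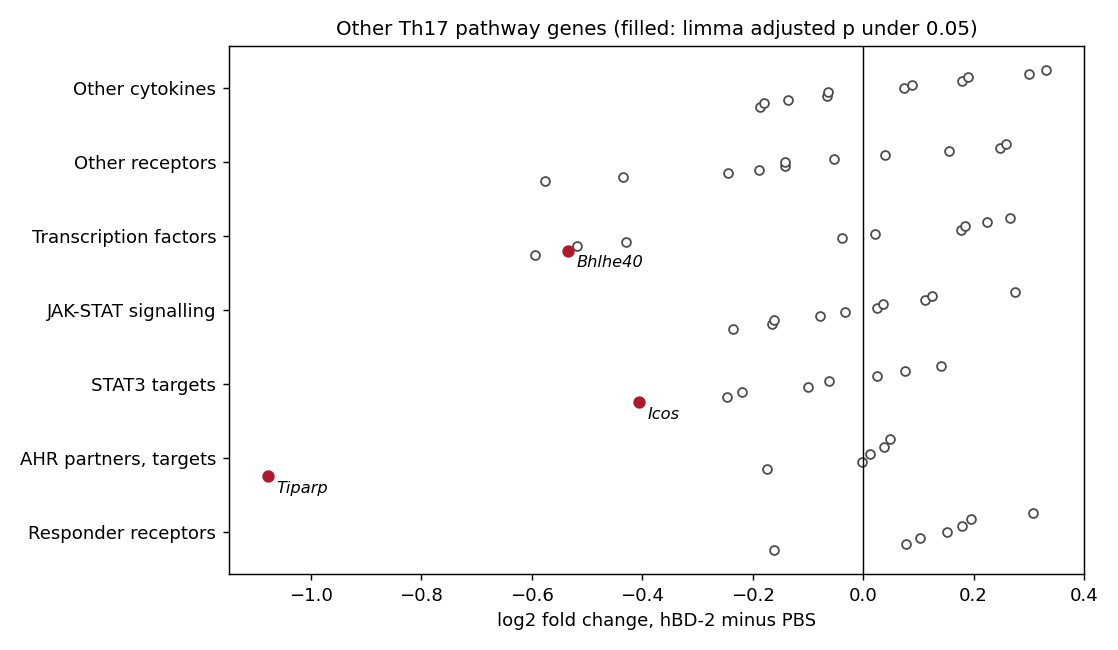
Log2 fold change of hBD-2 over PBS (horizontal axis) of each matched gene in 7 lists of other Th17 pathway genes (rows; Socs3 stands in both the JAK-STAT and the STAT3 target list). Filled red points are the 3 genes with a limma adjusted p under 0.05, all lower with hBD-2 on the deposited scale (1 higher and 1 lower passed after repeated quantile normalization), and open points did not pass.

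Of 10 matched transcription factors, 1 fell (Bhlhe40). Rora, a nuclear receptor gene whose product drives Il17a, was at 6.20, 5.44, 6.55 and 6.08 on hBD-2 arrays 1 to 4, and at 6.66, 6.70, 6.59 and 6.71 on PBS arrays 1 to 4. All hBD-2 values were below all PBS values but spread far more widely (log2 fold change -0.59, SE 0.186, adjusted p = 0.0926, limma). The log2 fold change was -0.38 without hBD-2 replicate 2 and -0.24 with the mean of its probe sets, and it passed with a variance trend (adjusted p = 0.0204, limma) and without hBD-2 replicate 3 (0.0484). Irf4 and Batf, which together open chromatin at Th17 genes, had log2 fold changes of -0.52 (adjusted p = 0.0928, limma) and 0.02 (adjusted p = 0.915, limma). Hif1a, which favours glycolysis and Th17 fate, had one of 0.27 (adjusted p = 0.110, limma). Irf4 passed with a variance trend (adjusted p = 0.0107, limma) and without hBD-2 replicate 1 (0.0425), and had a log2 fold change of -0.22 without hBD-2 replicates 3 and 4 together. Hif1a passed when the level trend was removed (adjusted p = 0.0457, limma), when dim genes were left out (0.0484), under a variance trend (0.00251) and after cyclic loess (0.0465). With arrays shifted to the common olfactory receptor level, the log2 fold change of Hif1a was 0.20 (adjusted p = 0.230, limma).

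The other receptors and signalling genes did not pass in the main fit (all arrays, all named genes, deposited values, no replicate block or variance trend). Il1rap, the accessory chain that pairs with the product of Il1r1, was at 4.90 ± 0.236 with hBD-2 and 5.33 ± 0.176 with PBS (SD, n = 4 each; log2 fold change -0.43, adjusted p = 0.0864, limma), opposite in sign to Il1r1, and it passed with arrays shifted to the common olfactory receptor level (0.0459), with dim genes left out (0.0464) and without hBD-2 replicate 1 (0.0287). Il18r1, the interleukin-18 receptor gene, had a log2 fold change of -0.58 (adjusted p = 0.121, limma). It passed with the replicate number as a block (adjusted p = 0.0384, limma), with a variance trend (0.0331) and without hBD-2 replicate 1 (0.0355), and was -0.38 without hBD-2 replicate 2. Il6ra had a log2 fold change of 0.26 (adjusted p = 0.234, limma) and Ccr6, the chemokine receptor of Th17 cells and of beta-defensins, one of 0.25 (adjusted p = 0.652, limma). Ccr6 was above the floor on only 3 arrays of each group and varied widely (SD 0.598 with hBD-2 and 0.460 with PBS, n = 4 each). Jak2, a kinase of the interleukin-23 receptor, was at 9.76, 9.69, 9.71 and 9.64 on hBD-2 arrays 1 to 4 and at 9.43, 9.40, 9.46 and 9.40 on PBS arrays 1 to 4. Its groups did not overlap and ran opposite to Stat3, with a log2 fold change of 0.27 (adjusted p = 0.0821, limma). Jak2 passed, higher with hBD-2, with quantile normalization repeated (0.36, adjusted p = 0.0327, limma), after cyclic loess (0.0316), when the level trend was removed (0.0309), when dim genes were left out (also 0.0309) and under a variance trend (0.00393). Jak2 did not pass with arrays shifted to the common olfactory receptor level (0.21, adjusted p = 0.175, limma) or with the replicate block (0.113). Nor did it pass with single arrays left out (0.107 to 0.176). Stat5a, which opposes STAT3 at the Il17a locus, had a log2 fold change of -0.24 (adjusted p = 0.177, limma).

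None of the 11 genes in the list of other cytokines, which leaves out Ifng, Il4 and Il13, passed, with log2 fold changes from -0.19 to 0.33. The highest 2 were Il25, of the interleukin-17 family (0.33, adjusted p = 0.183, limma), and Ccl20, the ligand of CCR6 (0.30, adjusted p = 0.186, limma). Tgfb1, needed for Th17 fate, was at 10.19 ± 0.135 with hBD-2 and 10.12 ± 0.0544 with PBS (SD, n = 4 each; adjusted p = 0.692, limma). Receptors through which other cells respond to the cytokines did not pass (7 of 7). Among them Il17re, at the floor, had a log2 fold change of 0.31 (adjusted p = 0.187, limma), and Traf3ip2, the adaptor of the interleukin-17 receptor, one of 0.20 (adjusted p = 0.261, limma).

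The labelled cell type was borne out by its markers, since all 8 T cell genes, Cd4 and Cd8a included, lay above the olfactory receptor percentile on every array. Whole RNA cannot tell fewer cells of a type apart from less RNA per cell. Of 7 gamma-delta T cell markers, 4 were matched and 3 were above the floor on all arrays (Sox13, Cd163l1 and Zbtb16), and their summed level on the log2 scale was 7.63 to 7.94 with hBD-2 and 7.67 to 7.79 with PBS. Of 5 matched markers of group 3 innate lymphoid cells, 4 were above the floor (Kit, Il7r, Cxcr6 and Lta), and Ncr1 was below it on all 8. Their summed level was 10.16 to 10.26 with hBD-2 and 10.40 to 10.49 with PBS. Most of it came from Il7r (mean 9.55 with hBD-2, 9.69 with PBS) and Lta (8.34 and 8.55). The sum therefore cannot be read as a level of innate lymphoid cells. Of these innate lymphoid markers Cxcr6 fell (log2 fold change -0.82, adjusted p = 0.0204, limma) and of the myeloid markers Itgam (-0.62, adjusted p = 0.0461, limma). Itgam was above the floor on 0 hBD-2 arrays and on 3 PBS arrays. Of the 7 matched myeloid markers, 5 had a log2 fold change above 0 and 2 below. Those above 0 included Lyz2 (0.52, adjusted p = 0.287, limma) and Cd14 (0.32, 0.0740), and Itgam therefore does not stand for the list. The 5 matched B cell markers summed to 7.04 to 9.01 with hBD-2 and 7.19 to 8.23 with PBS, and the 7 matched myeloid markers to 6.73 to 7.09 with hBD-2 and 6.74 to 7.06 with PBS, with Csf1r, Cd14, Adgre1 and S100a8 below the percentile throughout. The 4 matched natural killer cell markers summed to 8.68 to 9.02 with hBD-2 and 8.96 to 9.25 with PBS. Klrb1c and Ncr1 were below the percentile on all 8. Most of that sum came from Eomes (mean 8.69 with hBD-2, 8.91 with PBS), so it cannot be read as a level of natural killer cells. The part of gamma-delta T cells and of cells other than T cells in the members' values was not tested. Replicates 2 and 4 of both groups were the arrays with the most Cd79a. Without them, the log2 fold change was 0.44 for Il17a (adjusted p = 0.533, limma), -0.31 for Stat3 (0.614) and 0.20 for Il17f (0.775). With 2 arrays a group left, these values do not settle the part of B cells.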

How the data were processed

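The deposited table holds log2 expression values of 22203 probe sets on 8 arrays, and the authors used oligo and RMA (background correction, normalization between arrays and summary per probe set), per the submitters' processing notes, with versions and settings not given in the sources used here. RMA draws dim signals towards a floor. A platform annotation named 1 gene for 19572 probe sets and none for 2631. Where a gene had more than 1 probe set (55 genes), the brightest by mean was used, leaving 19505 genes, all tested.

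The groups were compared in R 4.3.3 by limma 3.58.1 (lmFit, then eBayes, no covariate), with two-sided p-values adjusted by Benjamini-Hochberg across the 19505 genes and a threshold of 0.05. Adjusted p-values and 95% intervals are from this fit. The fit was tested on simulated data with 200 seeded changes. Single values per array were compared with exact permutation tests. A gene was called above the floor where it exceeded the 95th percentile of 1091 olfactory receptor genes on every array of a group.

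Named were the 8 members, called genes of each list or else the 2 with the smallest p, and fixed Th17 regulators and other lineage cytokines. Fosl2, Maf and other list genes enter only the counts. Cd79a, Arnt, Ahrr, Cyp1a1, Cyp1b1, Socs3, Cxcr6 and Itgam were named after their values were seen. Members and lists were chosen with earlier results of these data known. Alternatives were the replicate number as a block, other normalizations, variance priors, array weights, probe set means, a filter on dim genes and arrays left out. The common olfactory receptor level and the omission of replicates 2 and 4 of both groups were chosen after seeing the data. The number of arrays limits the precision. Some listed genes are not reported here.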

Additional observations from a re-analysis of the deposited data

How the results depend on the processing

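Of 156 refits of the 8 members, 144 kept direction and side of the threshold and 5 (Il17a 2, Stat3 3, given with those genes) gained a call. The sign turned in 7 without a call on either side. Il21 had a log2 fold change of 0.012 with array weights and between -0.11 and 0.074 with single arrays left out, and Ahr had -0.0082 with quantile normalization, -0.014 with cyclic loess and -0.0048 with arrays shifted to a common olfactory receptor level. The count of called members was 2 with dim genes left out, 1 with a variance trend, 1 with the common olfactory receptor level and 0 to 1 without single arrays. Called genes in all numbered 1541 with dim genes left out (fewer genes tested), 2032 with a variance trend, 312 to 1396 without single arrays, 128 without hBD-2 replicates 3 and 4 together and 8 without replicates 2 and 4 of both groups (fewer arrays). Called pathway genes outside the 8 numbered 6, 10, 1 to 6, 1 and 0 under these settings in the same order. The cause of the other shifts was not tested.

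The replicate block gave 857 called genes, 0 members and 4 other pathway genes (Tiparp, Icos, Bhlhe40 and Il18r1, all lower). Same-numbered arrays had correlations of 0.181, 0.0585, 0.159 and 0.0048 of their deviations from the group means. Replicates 1, 2 and 3 of hBD-2 each correlated most with the PBS array of the same number. For hBD-2 replicate 4 the highest correlation was with PBS replicate 3 (0.0906). Whether the numbers mark pairs cannot be told from this. The labels tie no array to a mouse, so the numbers were not taken as pairs in the main fit. With the block as a sign-flip test of 4 differences, the differences of change of 1.87 (Il17a and Ifng) and 0.69 (Il17a and Il4) had an exact p of 0.125, the smallest possible. Without hBD-2 replicates 3 and 4 together they were 1.60 and 0.70 with an exact p of 0.0667, again the smallest possible. For Il17a and Ifng these p-values too were fixed by the separation of each gene and add no support. Nothing is read from the Il4 values, as Il4 was at the floor in both groups. Values near the array floor limit Il21, Il23r, Il1r1 and in part Il17f and, outside the members, Ccr6.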
